A study of Homo sapiens with 6 samples.

Results

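The transcripts described here encode the enzymes that make and break down polyamines and the proteins that control them. They were the 10 genes ODC1, AMD1, SRM, SMS, OAZ1, OAZ2, AZIN1, SAT1, SMOX and PAOX, picked by symbol from the 58825 genes of the deposited table, and each symbol had 1 row. RNA was measured in PANC-1, a widely used line from a human ductal carcinoma of the pancreas, in 3 libraries of cells given 8 µM of a compound labelled CMR for 48 h and in 3 control libraries. The sources used here give neither what the control cells received and for how long, nor the full name of CMR, nor whether libraries stem from separate cultures. P-values thus cover the spread among 3 libraries per group, and that spread may be technical. By the labels, all 6 libraries were poly(A)-selected and came from this 1 line. The protocol text of these labels also names an adipose source and a poly(A)- fraction. Library totals ran from 66460535 to 70129221 counts with CMR and from 51147268 to 63811430 counts in control.

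Putrescine, spermidine and spermine are small positively charged amines that bind nucleic acids and that dividing cells, carcinoma cells among them, need in quantity. Ornithine decarboxylase (ODC1) makes putrescine, and decarboxylated S-adenosylmethionine, made by AMD1, then supplies the aminopropyl groups that SRM adds to form spermidine and SMS adds to form spermine. Antizymes (OAZ1, OAZ2) bind ODC1 and send it to the proteasome, and the antizyme inhibitor AZIN1 holds them off. SAT1 acetylates spermidine and spermine, PAOX oxidises the acetylated forms, and SMOX oxidises spermine directly. ODC1, AMD1, the antizymes and SAT1 are known to be controlled strongly at translation and protein stability, and only RNA was measured here.

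Among the 10 genes, SAT1 and SRM rose and SMS fell with CMR, and no call was made for the other 7. SAT1 was 1.89-fold higher (95% interval 1.51 to 2.37) and SRM 1.44-fold higher (1.17 to 1.76), while SMS fell to 0.714 of its control level (0.619 to 0.823). Calls were made at an adjusted p under 0.05 in the quasi-likelihood test of edgeR, adjusted after Benjamini and Hochberg over 19200 genes. All 10 genes passed the filter on low counts. Of the 19200 genes, 38.6% were called, 20.5% higher and 18.1% lower, so that 3 calls in 10 genes lie near the background. The median log2 fold change of the 10 genes was -0.03, against -0.01 over all genes tested. The largest change among them, that of SAT1, was smaller than 1 on the log2 scale, and 47.8% of the genes called in the whole table passed that size. In bulk RNA, fewer cells that express a gene and less RNA per cell cannot be told apart.

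**Figure D1:**
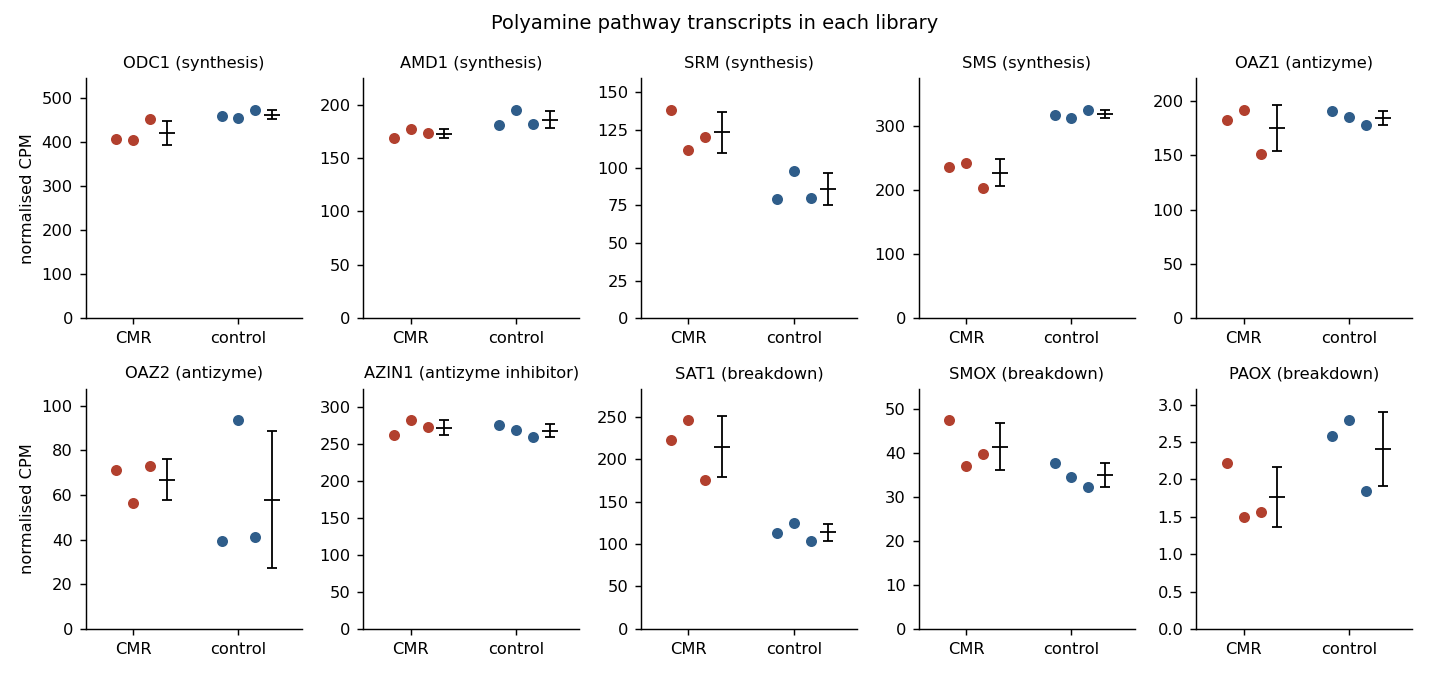
Normalised expression of the 10 genes in CPM, counts scaled to a common library total with TMM factors, in each of 3 CMR and 3 control libraries (points), with the mean and SD of each group (black). The CMR points lie above all control points for SRM and SAT1 and below them for ODC1, AMD1 and SMS. In OAZ2, 1 control library stands at 93.4 CPM, above all others.

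The start regions of the genes that changed are shown first, with that of ODC1 as the entry enzyme of the pathway. Each covers 250 bases before and 50 after a start site in the RefSeq table of build GRCh38.p14. From it, 10 such windows were taken for 7 of the 10 genes, matched by symbol. No window was taken for AZIN1, SMOX or PAOX, and whether the table holds any for them is not reported here. The letters run 5′ to 3′ on the gene's own strand, and capitals mark an E-box, CACGTG, an element bound by basic helix-loop-helix factors. SAT1 lies at chrX:23782923-23783222 on the plus strand, SMS at chrX:21940459-21940758 on the plus strand and SRM at chr1:11059969-11060268 on the minus strand. The ODC1 window, at chr2:10447963-10448262 on the minus strand, is the more downstream of its 2.
SAT1: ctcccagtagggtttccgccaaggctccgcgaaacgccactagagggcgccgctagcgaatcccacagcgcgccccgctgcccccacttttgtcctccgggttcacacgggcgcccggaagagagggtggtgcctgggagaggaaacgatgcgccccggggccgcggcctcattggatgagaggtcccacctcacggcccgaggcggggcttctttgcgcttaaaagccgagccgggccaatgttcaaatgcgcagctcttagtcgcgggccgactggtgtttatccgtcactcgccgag
SMS: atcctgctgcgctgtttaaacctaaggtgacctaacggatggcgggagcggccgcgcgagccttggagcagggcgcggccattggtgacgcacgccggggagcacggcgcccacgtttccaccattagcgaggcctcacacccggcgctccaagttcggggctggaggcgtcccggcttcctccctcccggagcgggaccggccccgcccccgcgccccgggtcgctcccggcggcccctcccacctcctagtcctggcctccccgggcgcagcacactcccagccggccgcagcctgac
SRM: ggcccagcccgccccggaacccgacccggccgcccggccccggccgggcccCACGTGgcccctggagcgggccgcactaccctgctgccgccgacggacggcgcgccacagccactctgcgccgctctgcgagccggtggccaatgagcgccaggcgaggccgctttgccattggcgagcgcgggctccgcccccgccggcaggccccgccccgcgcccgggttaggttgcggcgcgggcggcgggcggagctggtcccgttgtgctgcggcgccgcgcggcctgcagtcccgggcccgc
ODC1: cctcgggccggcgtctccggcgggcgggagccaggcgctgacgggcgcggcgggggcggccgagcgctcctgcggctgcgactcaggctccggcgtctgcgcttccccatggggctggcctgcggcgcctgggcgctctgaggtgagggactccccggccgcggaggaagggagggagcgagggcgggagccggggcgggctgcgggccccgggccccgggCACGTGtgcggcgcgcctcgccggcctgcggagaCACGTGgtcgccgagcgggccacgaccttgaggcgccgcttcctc
The ODC1 window shown held 2 E-boxes, starting at positions -29 and 6 from its own start site. It lies wholly inside the deposited gene. The other ODC1 window, at chr2:10448278-10448577, spans the 5′ end of the deposited gene, at 10448327, and held no E-box. The SRM window held 1, at position -199, while the windows of SAT1 and SMS held none. Of all 35116 windows in the table, 7.26% held at least 1 E-box on either strand. Of 6 motifs searched, the others were looked for on both strands in the windows taken. The cAMP response element TGACGTCA (in 1.85% of all windows) was in none of the windows taken. Nor were the C/EBP-ATF core TGATGNAA (3.62%) and the endoplasmic reticulum stress element, CCAAT and CCACG with 9 bases between them (0.0769%). The antioxidant response element TGACNNNGC (13.3%) was in the other ODC1 window, and the TATA core TATAA (20.4%) was in that window, in both overlapping AMD1 windows and in that of OAZ1. The part of these motifs in the changes of the genes was not tested. A match in these letters is a description and not evidence of a bound site.

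ODC1 (ENSG00000115758, chromosome 2, 10439968 to 10448327, minus strand), which makes putrescine from ornithine, had 407, 405 and 453 CPM in the CMR libraries, against 460, 455 and 474 CPM in the control libraries. Every CMR library lay below every control library, but by little. The log2 fold change was -0.14 ± 0.07 (SE, 95% interval -0.31 to 0.04, edgeR adjusted p = 0.197). A call for lower ODC1 was made with upper-quartile scaling (log2 fold change -0.265, edgeR adjusted p = 0.0228), which moved the median of all genes by -0.13, and with limma on log2(FPKM + 1) (adjusted p = 0.0393). With limma on log2(TPM + 1) ODC1 was not called (adjusted p = 0.208). AMD1, the S-adenosylmethionine decarboxylase, had 169, 177 and 173 CPM with CMR, against 181, 195 and 182 CPM in control. Its groups did not overlap either. Its log2 fold change was -0.10 ± 0.07 (95% interval -0.28 to 0.07, edgeR adjusted p = 0.308). It too was called lower with upper-quartile scaling (edgeR adjusted p = 0.0402).

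The enzymes that add the aminopropyl groups moved in opposite directions. SRM (ENSG00000116649, chromosome 1, 11054584 to 11060018, minus strand), spermidine synthase, had 138, 112 and 120 CPM with CMR, against 79.4, 98.0 and 80.0 CPM in control. All 3 CMR libraries were above all 3 control libraries, although control replicate 2 came near the lowest CMR library. The mean was 123.5 ± 13.7 CPM with CMR and 85.8 ± 10.6 CPM in control (SD, n = 3 each), a log2 fold change of 0.53 ± 0.12 (SE, edgeR adjusted p = 0.0142). That call was lost without control replicate 1 (edgeR adjusted p = 0.0592) and without control replicate 3 (edgeR adjusted p = 0.0563).

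SMS (ENSG00000102172, chromosome X, 21940709 to 21994837, plus strand), spermine synthase, had 237, 242 and 204 CPM with CMR, against 318, 313 and 326 CPM in control. The groups were well apart, and the control libraries differed from each other by less than the CMR libraries did. Its log2 fold change was -0.49 ± 0.09 (edgeR adjusted p = 0.00446), and the call was kept under all 18 alternatives. Within each library the ratio of SRM to SMS, in FPKM, a value scaled to gene length, was 0.626, 0.493 and 0.631 with CMR, against 0.267, 0.335 and 0.263 in control. No CMR library reached down to the control range. Its mean was 0.583 ± 0.078 in the CMR libraries and 0.288 ± 0.041 in control (SD, n = 3 each).

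**Figure D2:**
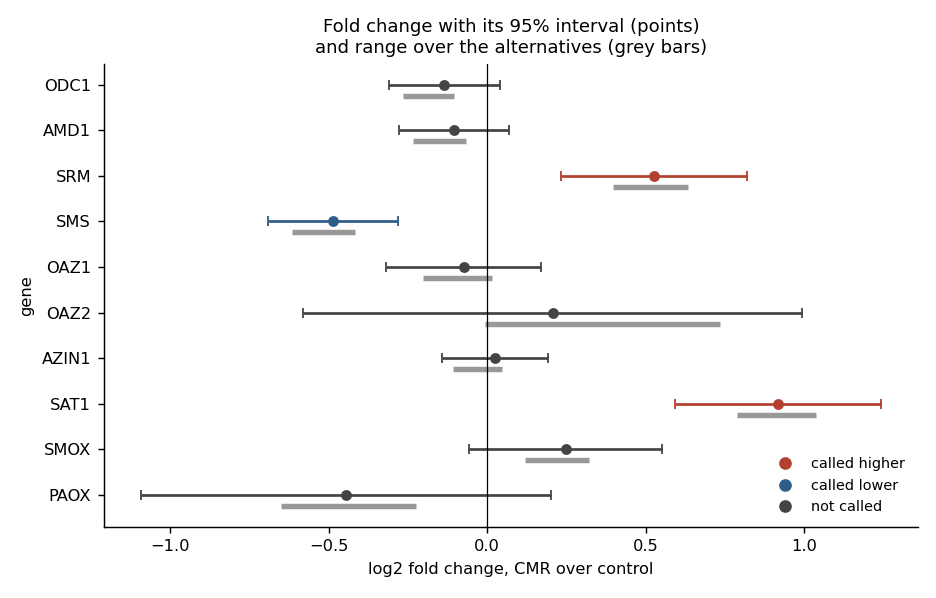
Log2 fold change of each gene, CMR over control, with its 95% interval from the edgeR fit (points and bars, coloured by call), and below it the lowest and highest estimate over the alternatives (grey). SRM and SAT1 lie right of 0 and SMS left of it in every alternative, and the grey bar of OAZ2 reaches from -0.01 to 0.73.

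The antizyme and antizyme inhibitor transcripts were not called. OAZ1, the main antizyme, whose full-length protein needs a ribosomal frameshift that polyamines promote, had 182, 192 and 151 CPM with CMR, against 191, 185 and 178 CPM in control. The groups overlapped, with a log2 fold change of -0.08 ± 0.10 (SE, edgeR adjusted p = 0.610). AZIN1, which resembles ODC1 in sequence but has no decarboxylase activity, had 262, 282 and 273 CPM with CMR, against 276, 269 and 259 CPM in control. It differed least of the 10 genes, with a log2 fold change of 0.02 ± 0.07 and a 95% interval of -0.14 to 0.19 (edgeR adjusted p = 0.828). Its sign changed under 7 of the 18 alternatives.

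OAZ2, another antizyme, had 71.1, 56.4 and 73.1 CPM with CMR, against 39.2, 93.4 and 41.3 CPM in control. Control replicate 2 lay above every CMR library, and the other two control libraries lay below every CMR library. The log2 fold change over all 6 libraries was 0.21 ± 0.33 (95% interval -0.58 to 0.99, edgeR adjusted p = 0.666). Without control replicate 2 it was 0.73 (edgeR adjusted p = 0.0165), a call for higher OAZ2 with CMR that the data with all libraries do not give. In raw counts, control replicate 2 held 4955 for OAZ2, against 2054 and 2705 in control replicates 1 and 3. Log expression over all tested genes was alike in the control libraries, with r from 0.967 to 0.968 over genes, which are no replicates. The genes whose spans overlap OAZ2 had at most 0.195% of its mean count.

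Of the breakdown enzymes, SAT1 rose. SAT1 (ENSG00000130066, chromosome X, 23783173 to 23786226, plus strand), the acetyltransferase that marks spermidine and spermine for oxidation or export, had 223, 246 and 176 CPM with CMR, against 112, 124 and 104 CPM in control. The lowest CMR library stood clearly above the highest control library. The mean was 214.6 ± 35.6 CPM with CMR and 113.6 ± 10.2 CPM in control (SD, n = 3 each), a log2 fold change of 0.92 ± 0.14 (SE, edgeR adjusted p = 0.00212), kept under all 18 alternatives. SMOX, spermine oxidase, had 47.4, 37.1 and 39.8 CPM with CMR, against 37.8, 34.6 and 32.3 CPM in control. Its groups overlapped, and its log2 fold change of 0.25 ± 0.13 was not called (95% interval -0.06 to 0.55, edgeR adjusted p = 0.178).

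PAOX, the peroxisomal oxidase of acetylated polyamines, was the least abundant of the 10 transcripts by far. It had 147, 102 and 103 raw counts with CMR, against 135, 148 and 121 in control, which is 2.22, 1.498 and 1.57 CPM against 2.58, 2.79 and 1.85 CPM. The groups overlapped and the log2 fold change was -0.45 ± 0.28 (95% interval -1.09 to 0.20, edgeR adjusted p = 0.248). This interval holds both 0 and a fall of the size seen for SMS. Neither oxidase was called, whereas the acetylating enzyme was.

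Per gene length, the levels of the 10 transcripts spanned more than 2 orders of magnitude. ODC1 stood highest, at 123.5 ± 6.4 FPKM with CMR and 143.2 ± 2.7 FPKM in control (SD, n = 3 each). SMS followed, at 92.0 ± 9.5 FPKM with CMR and 135.8 ± 2.5 FPKM in control, below ODC1 by more than their SDs in each group. SAT1, at 70.3 ± 12.2 FPKM with CMR and 39.3 ± 3.6 FPKM in control, ranked 3 of 10 with CMR and 4 of 10 in control. In control, SAT1, SRM and AZIN1 had means from 39.0 to 39.3 FPKM, apart by less than their spread. SRM stood at 53.4 ± 6.8 FPKM with CMR, above AZIN1 at 37.5 ± 1.0 FPKM. OAZ1 stood at 41.7 ± 5.5 FPKM with CMR and 46.4 ± 1.7 FPKM in control, and AMD1 at 20.1 ± 0.35 FPKM with CMR and 22.9 ± 1.0 FPKM in control. At the lower end, SMOX had 11.5 ± 1.7 FPKM with CMR and 10.2 ± 0.82 FPKM in control. OAZ2 had 7.13 ± 0.99 FPKM with CMR and 6.52 ± 3.47 FPKM in control, so that it could not be set apart from SMOX by its control values. PAOX had 0.638 ± 0.155 FPKM with CMR and 0.915 ± 0.193 FPKM in control.

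This order depends on the length. The deposited FPKM values imply a length of 4095 bases for OAZ1 and 2977 bases for SAT1. In GENCODE 29, all exons of these genes cover 3436 and 2498 bases, and the principal coding transcripts have 1148 and 1065 bases. OAZ1 and SAT1 span 3982 and 3054 bases, near their implied lengths. SMOX spans 66768 bases but has an implied length of 3514 bases, so the implied length is not in general the gene span. The exons of SMOX cover 2946 bases. In all 10 genes the implied length was above the length that exons cover in GENCODE 29. Why it was above was not tested. Per kilobase of the principal transcript, chosen after the data were seen, SAT1 ranked 1 of 10 with CMR, at 202 CPM per kilobase, against 107 in control. OAZ1 then ranked 3 of 10 with CMR in place of 5. ODC1 stood at 159 CPM per kilobase with CMR and 175 in control on that scale, so SAT1 was above ODC1 with CMR and below it in control. Comparisons of 1 gene between groups do not depend on the length used.

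Summed over enzymes, the FPKM of SAT1, SMOX and PAOX was 88.6, 90.9 and 68.1 with CMR, against 50.9, 54.3 and 46.0 in control, and SAT1 was the largest of the 3 terms in every library. The sum of ODC1, AMD1, SRM and SMS was 300.1, 284 and 282 FPKM with CMR, against 336, 343 and 343 FPKM in control. The ratio of breakdown to synthesis transcripts within a library was 0.295, 0.320 and 0.241 with CMR, against 0.151, 0.158 and 0.134 in control, so the lowest CMR ratio stood above the highest control ratio. The ratio of SAT1 to ODC1 alone was 0.611, 0.678 and 0.433 with CMR, against 0.273, 0.305 and 0.245 in control. The ratio of both antizymes to ODC1 was 0.428, 0.436 and 0.330 with CMR, against 0.368, 0.405 and 0.336 in control, and here the groups overlapped. The ratio of AZIN1 to ODC1 was 0.303, 0.328 and 0.284 with CMR, against 0.283, 0.278 and 0.257 in control, groups that stand apart by a narrow gap. These ratios are descriptions of RNA within each library and no p-value is attached to them. Of the 10 genes, 5 (SRM, SMS, SAT1, ODC1 and AMD1) had group ranges in CPM that did not overlap, against 53.9% of all genes tested.

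**Figure D3:**
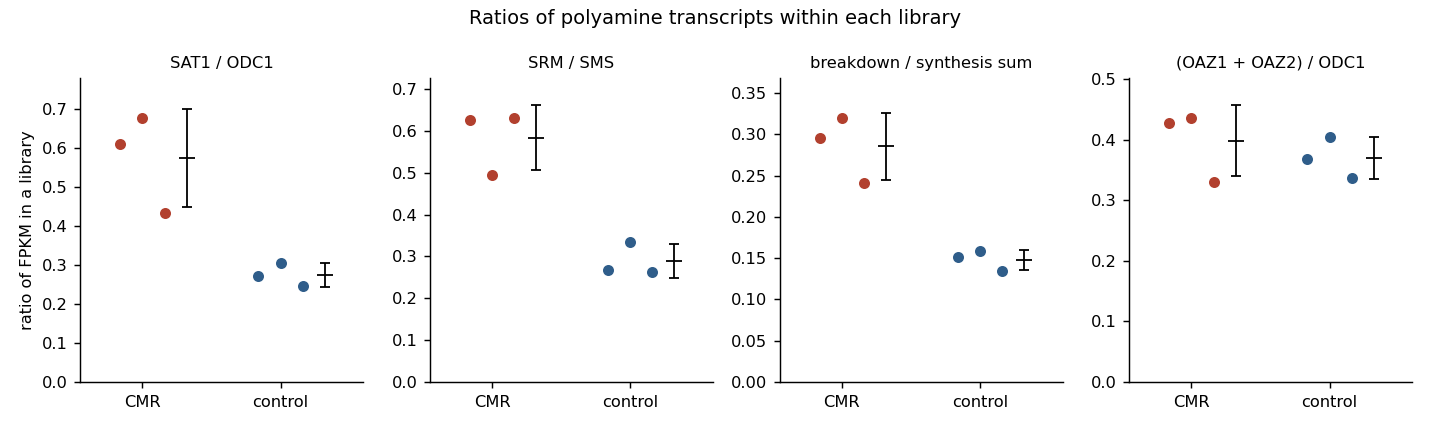
Ratio of FPKM values within each of 3 CMR and 3 control libraries (points), with the mean and SD of each group (black). SAT1 over ODC1, SRM over SMS and breakdown over synthesis are higher in every CMR library than in any control library, and both antizymes over ODC1 are not.

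The genes around the pathway were taken as 6 lists of 66 genes in all, of which 51 passed the filter. Of these 51, 18 rose, 6 fell and 27 were not called, so that 47.1% were called, against 38.6% of all genes tested (20.5% higher and 18.1% lower). The median log2 fold change was 0.28, against -0.01 over all genes tested. The lists were chosen with earlier results of these data known.

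The list of ornithine and arginine supply, the source of the carbon and nitrogen that ODC1 uses, had 10 of 14 genes tested, with 6 higher, 0 lower and a median log2 fold change of 0.62 by edgeR. Over all genes tested 20.5% were higher and 18.1% lower. At an unadjusted p under 0.05 there were 7 higher and 0 lower, against 4694 higher and 4389 lower among all 19200 genes tested. DESeq2 also called 0 lower in this list, against 3956 lower among all genes tested. ASS1, which joins citrulline and aspartate on the way to arginine, had 39.9, 42.6 and 57.8 CPM with CMR, against 3.88, 4.19 and 2.10 CPM in control. Even the lowest CMR library was far above control, and the log2 fold change was 3.79 ± 0.30 (edgeR adjusted p = 0.000192). ARG2, the mitochondrial arginase that releases ornithine, had 18.8, 20.8 and 29.5 CPM with CMR, against 2.02, 2.22 and 2.35 CPM in control, a log2 fold change of 3.39 ± 0.22 (SE, edgeR adjusted p = 9.04e-05). The span of ARG2 overlaps that of VTI1B on the other strand, whose mean was 73.5 CPM with CMR and 73.0 CPM in control, with no call (edgeR adjusted p = 0.940). ALDH18A1, which makes the precursor shared by proline and ornithine from glutamate, was 3.47-fold higher, and PYCR1, which takes that precursor to proline, 2.58-fold higher. The other 2 called genes, named after their values were seen, were OAT, which interconverts ornithine and that precursor (1.42-fold higher), and ASL, which releases arginine (1.502-fold higher). OTC and NOS1 had no count in any library.

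S-adenosylmethionine supply and methylthioadenosine salvage provide the aminopropyl donor and recycle its by-product. Of 16 genes in that list 14 were tested, 4 rose and 4 fell, with a median log2 fold change of 0.17. The share called was 57.1%, against 38.6% of all genes tested (20.5% higher and 18.1% lower). MAT2A, the methionine adenosyltransferase of most tissues, had 405, 345 and 270 CPM with CMR, against 777, 785 and 817 CPM in control, a log2 fold change of -1.22 ± 0.14 (SE, edgeR adjusted p = 0.000766). No CMR library came near the control range. Its span overlaps that of GGCX on the other strand, which averaged 109.7 CPM with CMR and 32.7 CPM in control and rose (edgeR adjusted p = 0.000229). MRI1, an isomerase of the salvage route, had 3.43, 7.89 and 5.81 CPM with CMR, against 13.5, 13.9 and 14.1 CPM in control (log2 fold change -1.28 ± 0.29, edgeR adjusted p = 0.0113). GOT1, an aspartate aminotransferase with many other roles, was 3.95-fold higher, and MTRR, which reactivates methionine synthase and overlaps FASTKD3, 1.73-fold higher. MTAP, the phosphorylase that starts the salvage and was named after its values were seen, had 6.73, 5.86 and 4.51 CPM with CMR, against 10.8, 5.97 and 10.3 CPM in control, with overlapping groups (edgeR adjusted p = 0.0960). Scaled to gene length its level was low, at a mean of 0.318 FPKM with CMR and 0.529 FPKM in control.

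Polyamine and diamine transport had 11 of 17 genes tested, 6 of them higher and 1 lower, against 20.5% higher and 18.1% lower among all genes tested, with a median log2 fold change of 0.65. SLC18B1, a vesicular polyamine transporter, had 12.7, 19.1 and 28.8 CPM with CMR, against 2.02, 0.924 and 1.81 CPM in control. The CMR libraries differed widely from each other but none reached down to control, and the log2 fold change was 3.66 ± 0.41 (edgeR adjusted p = 0.000667). SLC3A2, the heavy chain of several amino acid exchangers, which has been linked to diamine export, was 4.38-fold higher, and SLC7A1, which carries arginine and ornithine, 2.72-fold higher. CAV1, caveolin-1, which has been linked to restraint of polyamine endocytosis, had 288, 267 and 177 CPM with CMR, against 926, 862 and 795 CPM in control (log2 fold change -1.82 ± 0.18, edgeR adjusted p = 0.000435). The endolysosomal polyamine pumps ATP13A2 and ATP13A3, named after their values were seen, were not called. ATP13A3 had 249, 299 and 286 CPM with CMR, against 234, 286 and 278 CPM in control (log2 fold change 0.06, edgeR adjusted p = 0.691).

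The hypusine pathway, in which spermidine modifies the translation factor eIF5A, had 5 of 5 genes tested and 0 called by edgeR, with a median log2 fold change of -0.11. At an unadjusted p under 0.05 there were also 0, and 0 with DESeq2 or limma voom, while 1 gene was called lower with upper-quartile scaling, without CMR replicate 1 or without CMR replicate 2. EIF5A itself averaged 320 ± 26 CPM with CMR and 345 ± 14 CPM in control (SD, n = 3 each). EIF5AL1 is a near copy of EIF5A, so the split of reads between them is uncertain. Among 4 other polyamine enzyme and antizyme genes, all tested, 1 rose and 0 fell by edgeR, with a median of 0.44 (2 higher and 0 lower at an unadjusted p under 0.05 and by DESeq2). The one that rose was SAT2, a relative of SAT1 that acts poorly on polyamines, with 18.0, 15.6 and 21.2 CPM with CMR, against 10.5, 10.7 and 10.9 CPM in control (edgeR adjusted p = 0.00613). Of 10 genes of amine oxidation 7 were tested, with 1 higher, 1 lower and a median of 0.06. The share called was 0% in the hypusine list, 25% in the other polyamine genes and 28.6% in amine oxidation. Over all genes tested it was 38.6%. At an unadjusted p under 0.05, 4694 of all 19200 genes tested were higher and 4389 lower. DESeq2 called 4346 of them higher and 3956 lower, and limma voom called 7654. ALDH2, an aldehyde dehydrogenase, was 4.39-fold higher, and ALDH7A1, another, fell by 0.59 ± 0.15 on the log2 scale (edgeR adjusted p = 0.0195), a call that was lost without control replicate 1 (edgeR adjusted p = 0.0624) or control replicate 2 (edgeR adjusted p = 0.0735). AOC1, the diamine oxidase that degrades putrescine, had no count in any library.

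**Figure D4:**
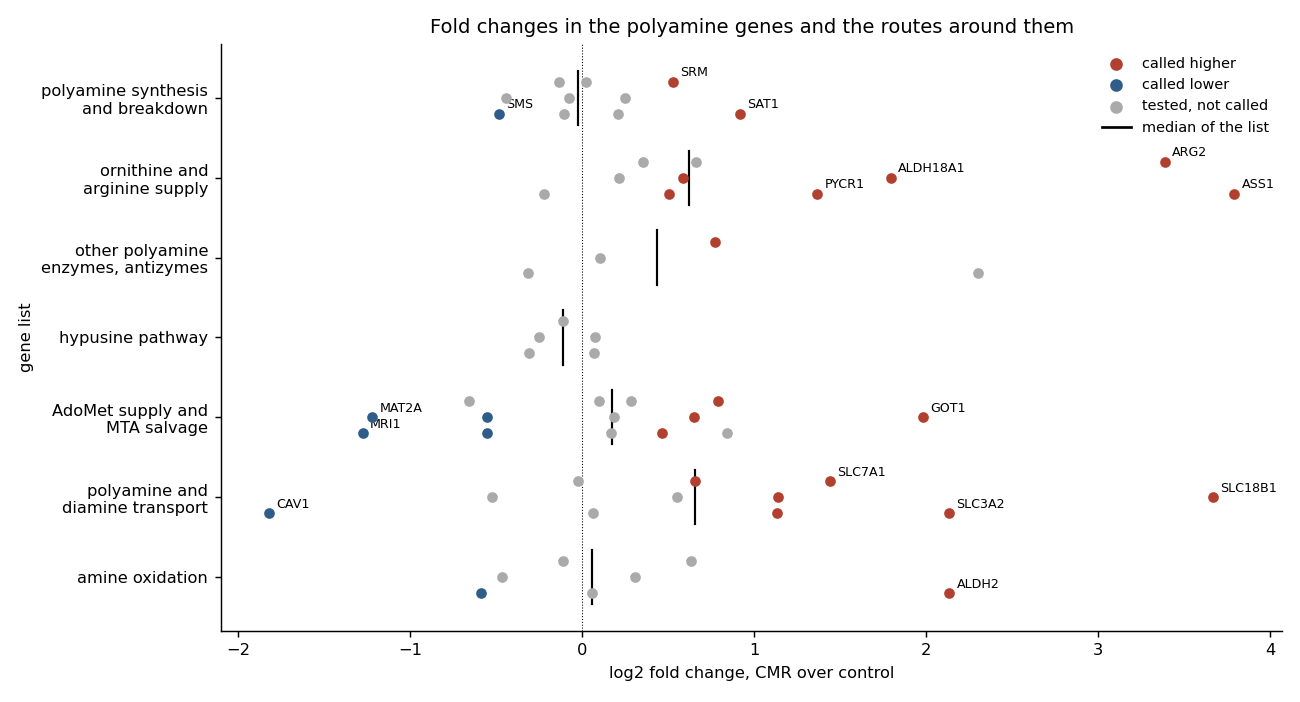
Log2 fold change, CMR over control, of each tested gene in the polyamine group and in the 6 lists around it (points, coloured by call; black lines are medians). The polyamine genes lie between -0.49 and 0.92, while ARG2, ASS1 and SLC18B1 lie above 3.

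The line was checked against marker lists. The list of 7 ductal and epithelial markers, which holds the keratins KRT8, KRT18 and KRT19 and also vimentin, a mesenchymal marker that this line expresses, had counts for every gene and summed to between 1896 and 2901 CPM with CMR and between 6507 and 6931 CPM in control. The 4 endocrine markers had no count. The sums of the 5 acinar, 3 endothelial and 3 fibroblast markers stayed under 1.70 CPM in every library. The 5 immune markers summed to 64.3 to 79.8 CPM with CMR and 65.7 to 81.9 CPM in control, nearly all from CD68, with CD3E at 0. VIM, the gene of vimentin and the largest term of the ductal and epithelial sum, had 1630, 1460 and 1210 CPM with CMR, against 3760, 3780 and 3710 CPM in control. KRT8, KRT18 and KRT19 were also lower in every CMR library than in any control library. EPCAM had 20.3, 33.6 and 20.2 CPM with CMR, against 18.6, 27.8 and 17.6 CPM in control, and SOX9 had 49.9, 53.1 and 12.0 CPM with CMR, against 27.2, 28.5 and 96.3 CPM in control, so that the groups overlapped for both. The part of these markers in the changes of the polyamine genes was not tested. With upper-quartile scaling the split of calls over all genes was 3250 higher and 4324 lower, in place of 3928 higher and 3476 lower.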

How the data were processed

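Per the labels' protocols, poly(A) RNA of PANC-1 cells was turned into paired-end libraries. The same protocol text also names an adipose source and a poly(A)- fraction, against the other labels, and the line given there was used. The deposited table holds whole-number counts without normalization for 58825 genes, and, per the file headers, FPKM values, which the authors relate to gene length and sequencing depth. Bowtie 0.12.2, HISAT2 2.0, StringTie 1.3.0 and a mouse build appear in the submitters' processing notes, whereas the gene identifiers are human. Of 58552 identifiers found in GENCODE 29, 81.2% had identical coordinates, so coordinates were read as GRCh38. Among the 10 polyamine genes, 5 had identical coordinates there. How counts were made, and with which strand setting, is not given in the sources used here. There were 0 columns of no sample.

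Counts of all 6 libraries were fitted with edgeR 4.0.16 (R 4.3.3) using TMM factors and the quasi-likelihood test. filterByExpr, with a minimum count of 10 and a minimum total of 15, kept 19200 of 31368 genes that had a count, and p-values were adjusted after Benjamini and Hochberg over those 19200. The SE of a fold change is its size divided by the square root of the F statistic. The procedure was tested on simulated data with known changes. Small changes, and larger ones in genes of low count, were often missed there, so a gene that was not called may still differ. Far fewer genes were changed in the simulated data than were called in the deposited data. Alternatives were limma 3.58.1, DESeq2 1.42.0, other scalings and filters, FPKM pseudocounts of 1 and 0.1, TPM, thinning to 51147268 counts, the replicate number as a block, and leaving out each library. Levels per kilobase of a principal transcript were added after seeing the data. All 10 polyamine genes are named. From each list around the pathway up to 4 called genes with the largest change are named, and the text says so where a gene was picked with its values in view. An overlapping gene is given where it had at least 10% of the mean count of a named gene. The genes and lists were chosen with earlier results of these data known. Each group held 3 libraries, and depths ran from 51147268 to 70129221 counts. No library was a copy of another. Figures were drawn with matplotlib 3.10.9. The level of 1 immune marker is not reported here.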

Additional observations from a re-analysis of the deposited data

How the results depend on the processing

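Each of the 10 polyamine genes was refitted under 18 alternatives, 12 of them other settings and 6 leaving out 1 library each, except PAOX, which did not pass the filter at 1 FPKM and had 17. The calls of SAT1 and SMS held under all 18, with log2 fold changes from 0.79 to 1.04 and from -0.61 to -0.42. That of SRM held under 16, with log2 fold changes from 0.40 to 0.63. Leaving out 1 library each gave 1 to 3 polyamine genes higher and 1 lower. SRM was lost without control replicate 1 (adjusted p = 0.0592) or control replicate 3 (0.0563), and OAZ2 was gained without control replicate 2. With upper-quartile scaling 3 polyamine genes were lower (ODC1, AMD1 and SMS), and with limma on log2(FPKM + 1) or log2(FPKM + 0.1) 2 were (ODC1 and SMS). With limma on log2(TPM + 1) only SMS was called lower. No gene changed sign among those called. Among those not called, OAZ1 had log2 fold changes from -0.144 to 0.015 with 1 library left out, above 0 without CMR replicate 3, and OAZ2 from -0.008 to 0.734, below 0 without control replicate 1. AZIN1 had one of -0.107 with upper-quartile scaling, -0.050 with library totals alone, -0.021 among genes of at least 1 FPKM, -0.054 and -0.055 with limma on log2(FPKM + 1) and log2(FPKM + 0.1), and from -0.002 to 0.046 with 1 library left out. The summed synthesis enzymes had a log2 difference of -0.24 in FPKM and of -0.16 in TPM or in CPM. TPM divides each FPKM by the sum over all genes of its library. That sum was 239700, 230800 and 228400 FPKM with CMR, against 248000, 249600 and 242600 FPKM in control. The cause of the difference left in TPM and CPM was not tested. Over the 15 named pathway genes, 268 of 270 values kept direction and call. The genes called in the whole table numbered 5660 to 7711 with 1 library left out. With the replicate block, the polyamine genes called were the same 3, and 6737 genes were called in place of 7404. Same-numbered libraries deviated from their group means with correlations of 0.034, 0.044 and 0.052, each the highest for its library but under 0.1, so the numbers were not taken to pair the samples. PAOX, with 102 to 148 counts per library, had a log2 fold change of -0.46 (adjusted p = 0.231) with libraries thinned to the smallest total, against -0.45 (adjusted p = 0.248) at full depth, and thinning left the same 3 polyamine genes called.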

Other observations

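Single libraries stood apart in some of the genes, chosen here after their values were seen. In control replicate 2, OAZ2 was higher than in the other control libraries, at 93.4 CPM against 39.2 and 41.3 CPM. MTAP was lower there, at 5.97 CPM against 10.8 and 10.3 CPM. AZIN2, an antizyme inhibitor known from brain and testis, had 0.943 CPM there against 0.153 and 0.366 CPM. ADI1, a dioxygenase of methylthioadenosine salvage, lay between 118.6 and 139 CPM in the 3 CMR libraries, while control replicate 1 had 38.3 CPM and the other control libraries 89.4 and 85.2 CPM. Its log2 fold change of 0.84 ± 0.30 was not called (edgeR adjusted p = 0.0596).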
